A study of Nothobranchius furzeri with 10 samples.

Results

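The 200 most abundant transcripts of the killifish brain were taken as the genes with the highest mean CPM (counts scaled to a library total of 1000000) over the 5 libraries of the scrambled control group, 200 of the 26739 genes counted. Nothobranchius furzeri, the turquoise killifish, is an annual fish of temporary pools with a very short life, kept in laboratories to study ageing. Its brain RNA was sequenced in 10 libraries, each from male fish, strain MZM-0410p, at 22 weeks of age. One group of 5 libraries was labelled as given antagomiR-29a at 100 pmol, and the other group of 5 as given a scrambled control, for which the labels state no dose. An antagomir is a modified oligonucleotide that binds and blocks a microRNA, here miR-29a, and a scrambled control has a shuffled sequence with no intended target. The sources used here give neither the route nor the timing of the treatment. The labels do not say that each library came from a separate fish, so the p-values rest on a spread between libraries that may be technical.

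The messenger RNA pool of a tissue is uneven, with a small set of genes giving a large part of the molecules and most genes giving few. In vertebrate brains the abundant part is known to hold messages for the translation machinery, for energy metabolism, for the cytoskeleton and for synapses, and in bulk tissue also messages of myelin and blood. The deposited tables list genes by identifiers without names, and none of these identifiers occurs in the RefSeq gene table of the species. No member is therefore assigned a product here, the brain label was not checked against marker genes, and members are given by their rank in control mean CPM. In bulk tissue, fewer cells of a type and less RNA per cell cannot be told apart.

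The members, 0.748% of the genes in the table, took 20.3%, 19.04%, 19.9%, 20.9% and 19.5% of the counts in antagomiR-29a replicates 1 to 5, against 19.5%, 20.3%, 20.02%, 19.7% and 20.5% in scrambled control replicates 1 to 5. The groups overlapped almost fully. The mean share was 19.9% ± 0.704 in antagomiR-29a and 19.997% ± 0.436 in scrambled control libraries (SD, n = 5 each). The control libraries chose the members, so this share is a description and was not tested. The next 200 genes by control rank held 8.23% ± 0.175 of the counts in antagomiR-29a and 8.25% ± 0.108 in scrambled control libraries. Library totals ran from 18489730 to 24486735 counts, and every member had between 6210 and 171865 counts in each library.

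**Figure D1:**
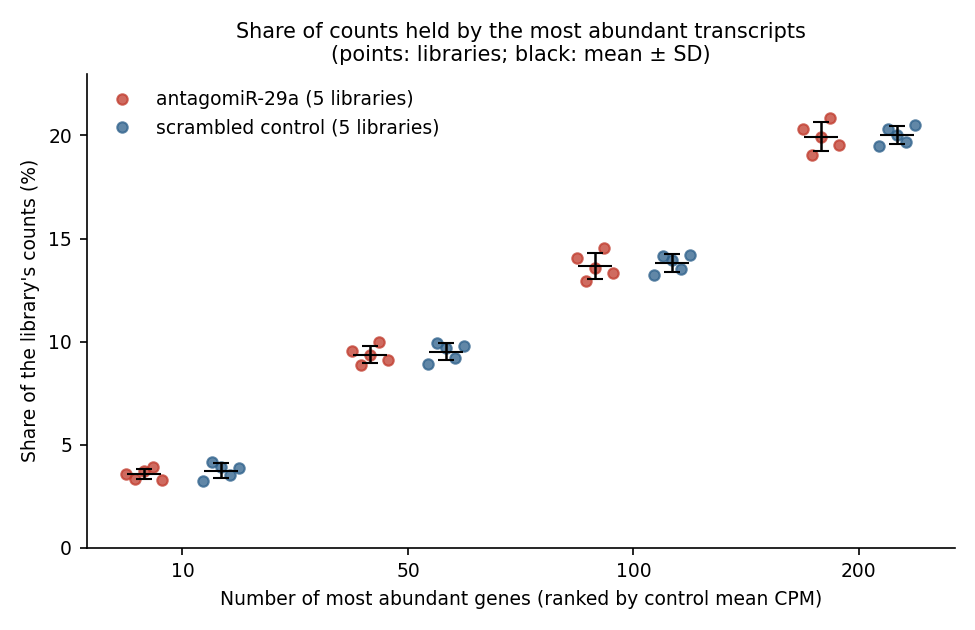
Share of each library's counts (vertical axis, percent) held by the 10, 50, 100 and 200 most abundant genes by control mean CPM (horizontal axis). Points are libraries and black marks the mean ± SD of 5 libraries; the groups overlap at each number of genes, with the 200 members at 19.04% to 20.9% in antagomiR-29a and 19.5% to 20.5% in scrambled control libraries.

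Within the members the counts were uneven, but the first 10 genes did not hold most of them. All 200 members held 19.9% of the library's counts in antagomiR-29a and 19.997% in scrambled control libraries. The first 10 took 3.57% ± 0.252 of the counts in antagomiR-29a and 3.75% ± 0.349 in scrambled control libraries, and the first 50 took 9.37% ± 0.43 in antagomiR-29a and 9.51% ± 0.419 in scrambled control libraries (SD, n = 5 each). A mean above 1000 CPM was reached by 58 members in the antagomiR-29a group and by 56 in the scrambled control group, and 13 members exceeded 2000 CPM in each. The transcript of rank 1 had 6401, 7222, 7699, 7738 and 6666 CPM in antagomiR-29a replicates 1 to 5, against 6547, 6938, 6906, 5754 and 7019 CPM in the scrambled controls. It was the most abundant gene by CPM in all 10 libraries, and its groups overlapped. Its control mean was 12.6 times that of the transcript of rank 200 on the CPM scale, which is not corrected for length. The 10 most abundant genes of each library came from a pool of 13 genes, 8 of which were in that top 10 in every library.

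CPM favours long transcripts, since a longer message gives more fragments. Gene lengths were worked out from the count and RPKM tables, and for every member the 10 libraries gave the same length within 0.00405%. The members measured 321 to 30370 bases, with a median of 2966.5 bases, against 4820.5 bases for ranks 201 to 400 and 2613 bases for the tested genes with a length. Short genes made up a larger part of the members than of the genes next to them. At most 1000 bases long were 46 members (23%), against 12% of ranks 201 to 400 and 18.4% of the tested genes with a length. Over 8000 bases long were 37 members (18.5%), against 24.5% of ranks 201 to 400 and 6.68% of the tested genes with a length. Of the members, 108 were also among the 200 highest genes by control CPM per kilobase, and the lowest member stood at place 3948 of 18041 on that scale. The transcripts of rank 2 and rank 1 reached 3074 and 2866 CPM per kilobase, places 2 and 3 of all genes. Also among the 10 highest genes on that scale were the short transcripts of rank 48, rank 57 and rank 73 (393, 387 and 354 bases), with 2751, 2576 and 2430 CPM per kilobase, at places 4, 5 and 9. The transcripts of rank 62, rank 21 and rank 8 (372, 654 and 1182 bases) were at places 6, 7 and 10. By contrast, the transcript of rank 5, with 9715 bases, was at place 153 per kilobase. Per kilobase, the members held 26.3% ± 1.23 of the summed level in antagomiR-29a and 26.4% ± 0.531 in scrambled control libraries (SD, n = 5 each).

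Membership was nearly the same in the libraries that did not choose it. Of the 200 members, 192 were among the 200 highest genes by mean CPM of the antagomiR-29a group. Single libraries held 187, 182, 188, 183 and 188 members in their own top 200 in antagomiR-29a replicates 1 to 5, against 188, 189, 191, 186 and 191 in the scrambled controls, whose own values had chosen the list. Over all 10 libraries 151 genes were in every top 200 and 248 in at least 1. At the limit of the list, the transcripts of rank 199 and rank 200 had control means of 527.1 and 527.0 CPM, and those of rank 201 and rank 202, outside it, had 525.5 and 522.6 CPM. Of the 8 members that left, 7 were near this limit, with control ranks from 170 to 200. Among the genes that entered, some were near it, with control ranks from 206 to 221. Those of control ranks 267, 286 and 387 came from further off.

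The member that moved furthest out was the transcript of rank 121, a gene of 2544 bases. It had 393, 280, 481, 365 and 678 CPM in antagomiR-29a replicates 1 to 5, against 1137, 667, 411, 435 and 711 CPM in the scrambled controls. Control replicate 1 was the highest of all, and the groups overlapped (log2 fold change -0.62, SE 0.29, adjusted p = 0.862 by the edgeR quasi-likelihood test with Benjamini-Hochberg adjustment over all genes tested). In the other direction, the gene of control rank 387, no member, stood at rank 138 in the antagomiR-29a group. It had 644, 630, 676, 610 and 666 CPM in antagomiR-29a replicates 1 to 5, against 354, 263, 327, 390 and 379 CPM in the scrambled controls. Here the groups did not overlap, and the difference passed (log2 fold change 0.91, SE 0.09, edgeR adjusted p = 0.0156). Over the 18 other fits it was higher in antagomiR-29a by a log2 fold change of 0.83 to 0.97 and passed in 13. The call was lost without antagomiR-29a replicate 1 (adjusted p = 0.0778), antagomiR-29a replicate 5 (0.0763), scrambled control replicate 1 (0.0822) or scrambled control replicate 3 (0.0619), and with a block for the title number (0.743). A gene of control rank 286 entered with 706, 469, 724, 38.6 and 727 CPM in antagomiR-29a replicates 1 to 5, against 253, 708, 216, 428 and 460 CPM in the scrambled controls, so that its level was far lower in antagomiR-29a replicate 4 than in any other library.

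The comparison of the groups asks which of the abundant transcripts differed between antagomiR-29a and scrambled control brains. None of the 200 members passed an adjusted p of 0.05 in the edgeR fit of all 18976 genes tested, where 0.0474% of all tested genes passed. The lowest adjusted p among them was 0.347. At an unadjusted p under 0.05 there were 4 members (2 higher and 2 lower in antagomiR-29a), beside 5.91% of all tested genes (3.32% higher and 2.59% lower). Limma-voom called 0 members, beside 0.0474% of all tested genes, and had 3 members at an unadjusted p under 0.05, beside 5.55% of all tested genes. DESeq2 called 1 member, which was lower in antagomiR-29a, beside 0.38% of the genes it gave an adjusted p, and had 7 members at an unadjusted p under 0.05, beside 5.04% of the genes it fitted. Since the control values chose the members, these shares are set side by side and nothing is read from their difference.

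The fold changes of the members were small and closely bounded. Their median log2 fold change was 0.015 (antagomiR-29a minus scrambled control), with a middle range of -0.046 to 0.047, beside a median of 0.0032 and a middle range of -0.068 to 0.087 over all genes tested. By sign, 121 members were higher and 79 lower (60.5% higher), beside 43% higher in ranks 201 to 400 and 51.3% in all tested genes. A block of 70 members that varied together, described below, gave 64 of the higher and 6 of the lower. The sign of the median turned to -0.0078 without antagomiR-29a replicate 1 and to -0.0043 without scrambled control replicate 3. A log2 fold change under 0.1 in size was found for 169 members (84.5%), beside 88% of ranks 201 to 400 and 59.8% of all tested genes. The 95% interval excluded a change of 1.5-fold in either direction for 192 members (96%) and a change of 1.25-fold for 171 members (85.5%). The same bounds held for 95.5% and 87% of ranks 201 to 400, so they were not particular to the members. Over all tested genes they held for 75.9% and 50.2%.

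**Figure D2:**
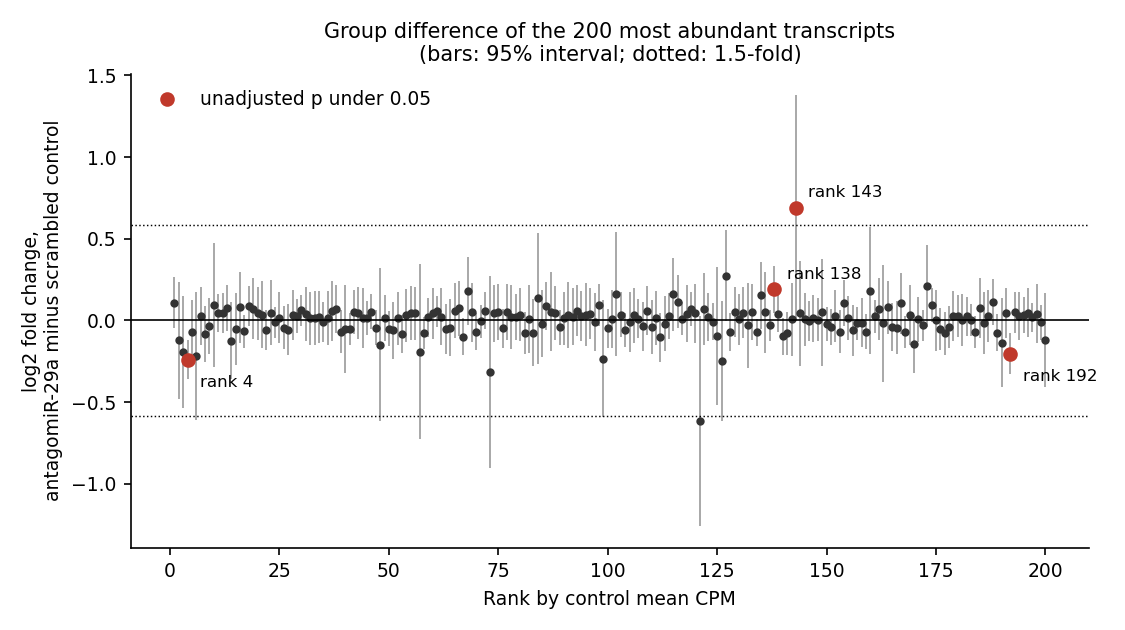
Log2 fold change, antagomiR-29a minus scrambled control, of each of the 200 members (vertical axis) by rank in control mean CPM (horizontal axis), with 95% intervals from the edgeR fit; dotted lines mark a 1.5-fold change. The 4 members at an unadjusted p under 0.05 are in red, none of which passed after adjustment, and 192 intervals lie within the dotted lines.

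The lowest p among the members belonged to Nfu_g_1_008211, the transcript of rank 4, a gene of 7728 bases. It had 3717, 3451, 3381, 3431 and 3355 CPM in antagomiR-29a replicates 1 to 5, against 3919, 4151, 3862, 4082 and 4469 CPM in the scrambled controls. All 5 antagomiR-29a libraries were below all 5 controls. The means were 3467 ± 145 CPM in antagomiR-29a and 4097 ± 239 CPM in scrambled control libraries (SD, n = 5 each), a log2 fold change of -0.24 (SE 0.05, 95% interval -0.36 to -0.12). It did not pass in edgeR (adjusted p = 0.347), and DESeq2 called it (adjusted p = 0.004). Over the 18 other fits it was lower in antagomiR-29a in all 18 and passed only in DESeq2, with an adjusted p between 0.004 and 0.9997.

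Nfu_g_1_021525, the transcript of rank 192, had 478, 500, 457, 475 and 419 CPM in antagomiR-29a replicates 1 to 5, against 555, 552, 518, 551 and 506 CPM in the scrambled controls. Its groups did not overlap either (log2 fold change -0.20, SE 0.06, edgeR adjusted p = 0.628). The third member without overlap was the transcript of rank 134. It had 628, 619, 622, 625 and 602 CPM in antagomiR-29a replicates 1 to 5, against 652, 667, 661, 650 and 630 CPM in the scrambled controls. Its antagomiR-29a replicate 1, at 628.2 CPM, was only just below control replicate 5, at 630.3 CPM. The means were 619 ± 10.2 CPM in antagomiR-29a and 652 ± 13.99 CPM in scrambled control libraries (SD, n = 5 each, log2 fold change -0.07, edgeR adjusted p = 0.88). In all, 3 members had groups that did not overlap, each lower in antagomiR-29a. Beside them stood 1.18% of all tested genes in either direction (0.58% higher and 0.595% lower). High control values chose the members, which favours genes that are lower in antagomiR-29a, so nothing is read from this direction. With members chosen from all 10 libraries there were also 3, of which 1 was higher and 2 lower in antagomiR-29a. On TMM-scaled CPM, 2 members had such groups, beside 1.13% of all tested genes. The transcript of rank 134 was not among these 2, since its groups overlapped on that scale. Without antagomiR-29a replicate 2 or without scrambled control replicate 3 there were 6, of which 2 were higher and 4 lower in antagomiR-29a, beside 2.45% and 2.32% of all tested genes. Without antagomiR-29a replicate 1 or without scrambled control replicate 5 there were 5, all lower, beside 2.69% and 2.00% of all tested genes.

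Among the members with higher values, Nfu_g_1_000034, the transcript of rank 138, had the lowest p. It had 747, 700, 647, 779 and 780 CPM in antagomiR-29a replicates 1 to 5, against 619, 639, 723, 602 and 621 CPM in the scrambled controls. Control replicate 3 lay within the antagomiR-29a range (log2 fold change 0.19, SE 0.07, edgeR adjusted p = 0.755). The next was Nfu_g_1_007538, the transcript of rank 143, with 631, 697, 1806, 1281 and 709 CPM in antagomiR-29a replicates 1 to 5, against 396, 743, 923, 509 and 602 CPM in the scrambled controls. The antagomiR-29a replicates 3 and 4 stood above every control, while the other antagomiR-29a libraries fell within the control range. Its log2 fold change was 0.69 with a 95% interval of 0.0034 to 1.38 (edgeR adjusted p = 0.844). Without antagomiR-29a replicate 3 the log2 fold change was 0.38 (edgeR adjusted p = 0.9999, against 0.650 to 0.9999 over the 18 other fits).

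The members differed far more between libraries of a group than counting alone allows. Their median coefficient of variation (CV, the SD as a percentage of the mean CPM) was 8.38% in antagomiR-29a and 7.503% in scrambled control libraries, while counting error alone gave medians of 0.802% and 0.822%. The CV exceeded 3 times the counting error in 192 members in antagomiR-29a and in 195 in scrambled control libraries. In ranks 201 to 400 it did so for 176 and 173 of 200 genes, and over all tested genes for 5338 and 5062 of 18976. Counting error is smaller for abundant genes, so these numbers depend on abundance. Ranks 201 to 400 had a median CV of 6.75% in antagomiR-29a and 6.66% in scrambled control libraries, and all tested genes, which hold many low counts, had 11.0% and 10.9%. The CV was over 20% for 15 members (7.5%) in antagomiR-29a and 12 (6%) in scrambled control libraries, 8 of them in both groups. In ranks 201 to 400 it was over 20% for 15 and 8 genes, and over all tested genes for 25.5% and 25.2%. It was under 5% in both groups for 18 members.

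**Figure D3:**
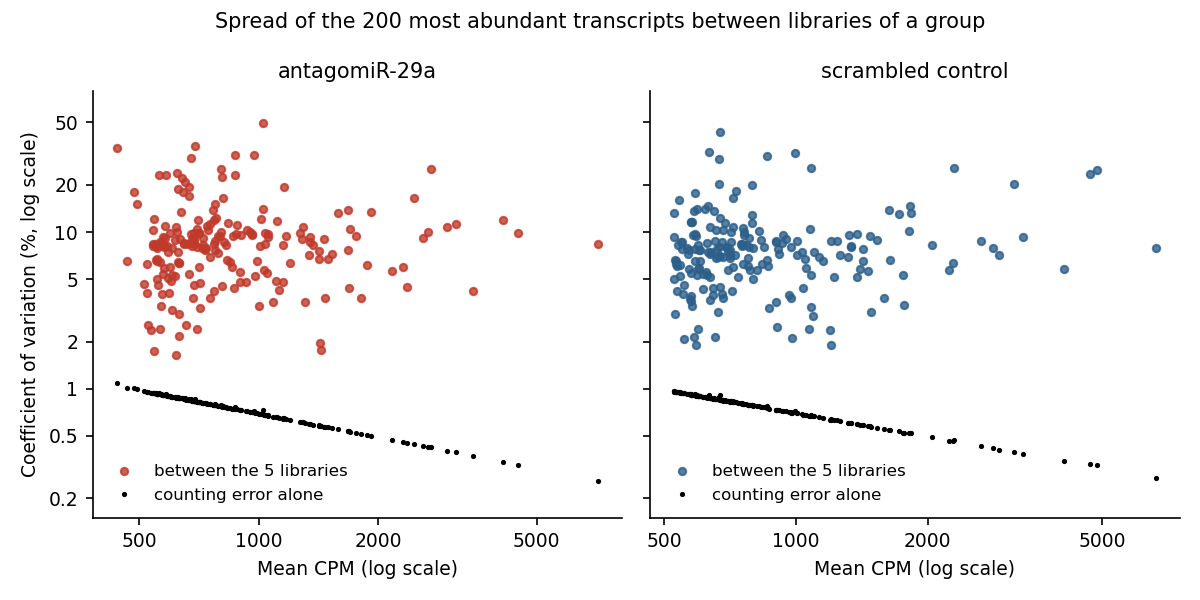
Coefficient of variation between the 5 libraries of a group (vertical axis, percent, log scale) against mean CPM (horizontal axis, log scale) for the 200 members, antagomiR-29a on the left and scrambled control on the right. Coloured points are the measured values, with medians of 8.38% and 7.503%, and black points are the values that counting error alone would give, with medians of 0.802% and 0.822%.

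At the steady end stood the transcript of rank 134, a gene of 9698 bases with a CV of 1.64% in antagomiR-29a and 2.15% in scrambled control libraries. Similarly steady in antagomiR-29a, the transcript of rank 30 had a CV of 1.77% in antagomiR-29a, at 1438 ± 25.5 CPM, and of 5.18% in scrambled control libraries, at 1379 ± 71.4 CPM (SD, n = 5 each). At the other end, Nfu_g_1_007538 had a CV of 49.7% in antagomiR-29a and 32.3% in scrambled control libraries. For the transcript of rank 121 the CV was 34.4% in antagomiR-29a and 43.5% in scrambled control libraries, the highest control value among the members.

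Much of this spread was shared, with antagomiR-29a replicate 2 the lowest of its group for 93 members and control replicate 5 the highest for 81. The members did not all shift in the same direction. AntagomiR-29a replicate 2 was also the highest of its group for 42 members, and control replicate 5 the lowest for 47. Each member's log2 CPM was set against its own group mean, so that the difference between the groups was removed, and members were grouped by the correlation of these deviations over the 10 libraries. The grouping was made on the same libraries and is a description. The largest block held 70 members, with a median correlation of 0.892 between pairs, where the median over all 19900 member pairs was -0.0014. All of these points share libraries and depth. The block's mean log2 deviation was 0.12, -0.18, -0.029, 0.12 and -0.027 in antagomiR-29a replicates 1 to 5, and 0.019, -0.073, -0.075, -0.040 and 0.17 in the scrambled controls. AntagomiR-29a replicate 2 was below the group mean for all 70, and antagomiR-29a replicate 4 and control replicate 5 were above it for all 70. The block took 6.83% ± 0.598 of the counts in antagomiR-29a and 6.70% ± 0.48 in scrambled control libraries (SD, n = 5 each), and its shares overlapped between groups.

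The ratio of the CPM of a pair of members of this block had a median CV of 4.23% over the 10 libraries, with a range of 1.005% to 13.6% over its 2415 pairs, where all member pairs had a median of 11.2%. The tightest pair, the transcripts of rank 69 and rank 75, had CVs of 10.3% and 9.73% in antagomiR-29a and 8.73% and 8.07% in scrambled control libraries, yet the ratio of their CPM varied by a CV of 1.005% over the 10 libraries, between 1.05 and 1.08. The members of the block of 70 measured 321 to 6150 bases, with a median of 1081.5 bases. Of these 70, 34 were at most 1000 bases long and 52 at most 2000. Thus 34 of the 46 members of at most 1000 bases belonged to the block, which also held longer genes. None of its members exceeded 8000 bases. When members were grouped on the control libraries alone, the largest block held 67 members, of which 62 were in the block of 70. In the antagomiR-29a libraries, which had no part in that grouping, its pairs had a median correlation of 0.936, against 0.0721 for the other member pairs (5 libraries). All 67 were above the group mean in control replicate 5, which had a part in that grouping. In the libraries without a part in it, 62 were below the group mean in antagomiR-29a replicate 2 and 62 were above it in antagomiR-29a replicate 4. Members that vary together are not separate observations of a library.

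**Figure D4:**
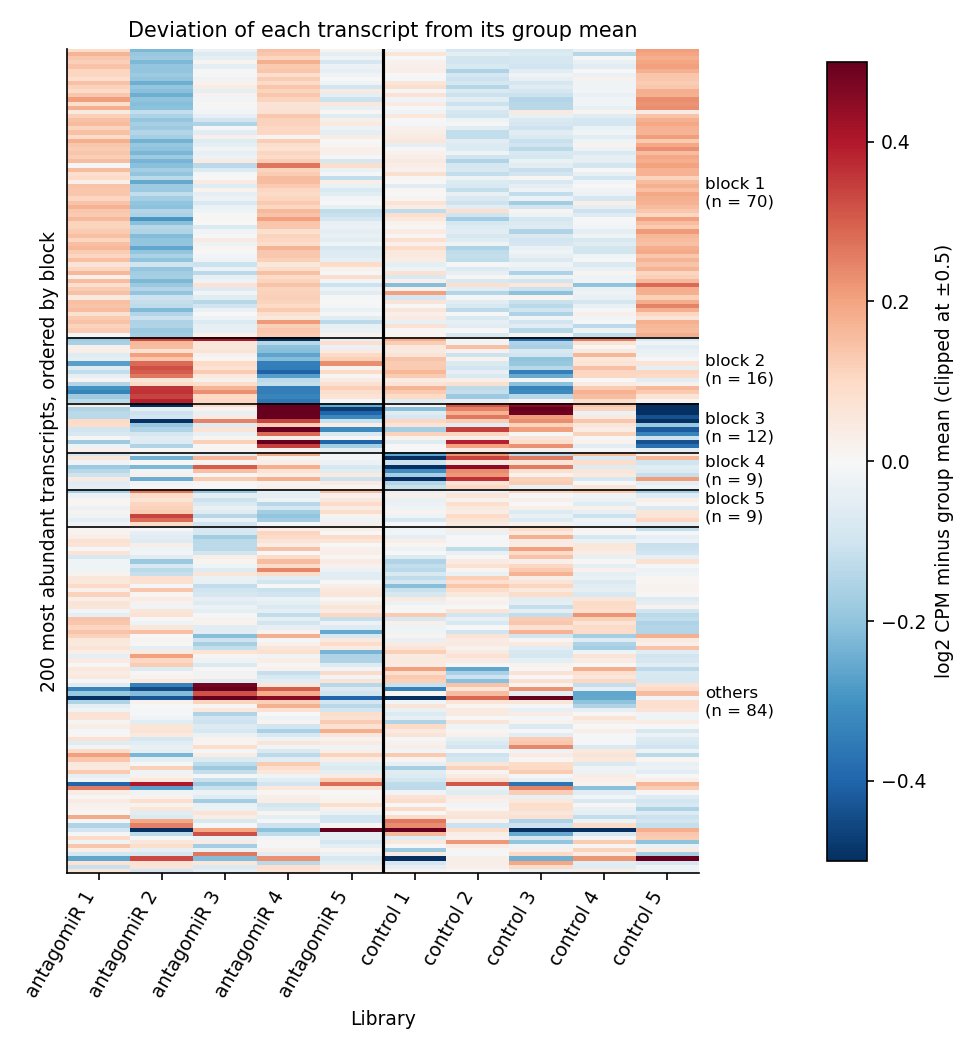
Each row is 1 of the 200 members and each column 1 library, antagomiR-29a on the left of the thick line and scrambled control on the right; colour gives log2 CPM minus the member's mean in that group, clipped at 0.5 either way. Horizontal lines separate the 5 largest blocks of members that vary together, of 70, 16, 12, 9 and 9 members: block 1 is low in antagomiR-29a replicate 2 and high in antagomiR-29a replicate 4 and control replicate 5, and block 3 is high in antagomiR-29a replicate 4 and low in control replicate 5.

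The next block, of 16 members, held long transcripts, 13 of them over 8000 bases, with a median of 13898.5 bases. Its mean log2 deviation was -0.12, 0.24, 0.10, -0.28 and 0.062 in antagomiR-29a replicates 1 to 5, and 0.10, -0.036, -0.19, 0.10 and 0.021 in the scrambled controls. It was thus high in antagomiR-29a replicate 2 and low in antagomiR-29a replicate 4, the reverse of the block of 70 in these libraries. The transcripts of rank 144 and rank 149, of 17252 and 23508 bases, belonged to it. Rank 144 had 519, 819, 718, 503 and 694 CPM in antagomiR-29a replicates 1 to 5, against 704, 572, 497, 686 and 699 CPM in the scrambled controls, and the ratio of the pair varied by a CV of only 2.34%.

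Another block of 12 members had a wide median spread, with a median CV of 23.02% in antagomiR-29a and 19.1% in scrambled control libraries. Correlation takes no account of the size of the deviations, and the block also held steady members. Among them were the transcript of rank 134, named above as steady, and that of rank 137. Their CVs were 1.64% and 2.17% in antagomiR-29a and 2.15% and 4.37% in scrambled control libraries. Its mean log2 deviation was -0.046, -0.18, 0.040, 0.39 and -0.21 in antagomiR-29a replicates 1 to 5, and -0.022, 0.18, 0.22, 0.048 and -0.43 in the scrambled controls. The short transcripts of rank 48, rank 57 and rank 73, among the highest per kilobase, were part of it. Others as high per kilobase were not, and the transcripts of rank 62 and rank 8 fell in the block of 70. The transcript of rank 73 had 674, 437, 707, 1086 and 554 CPM in antagomiR-29a replicates 1 to 5, against 829, 1017, 1121, 902 and 433 CPM in the scrambled controls. Its lowest values were in antagomiR-29a replicate 2 and control replicate 5. Rank 6 of the members had 2338, 2537, 2878, 3811 and 2007 CPM in antagomiR-29a replicates 1 to 5, against 2981, 4063, 3300, 3143 and 2295 CPM in the scrambled controls. Of the 12, 3 were higher and 9 lower in antagomiR-29a, with a median log2 fold change of -0.14, and none passed. The transcripts of rank 99 and rank 126, both in this block, lie in neighbouring rows of the table, and their ratio varied by a CV of 3.30%; whether reads of overlapping or near-identical genes are shared between them cannot be seen from counts.

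A block of 9 members held the transcripts of rank 2, rank 3 and rank 10, and its lowest library was control replicate 1, with a mean log2 deviation of -0.33 against -0.084 to 0.23 in the others. The transcript of rank 2 had 4660, 3795, 5009, 4516 and 4435 CPM in antagomiR-29a replicates 1 to 5, against 2933, 5991, 5668, 4505 and 5313 CPM in the scrambled controls. Its control values thus enclosed all antagomiR-29a values. The log2 fold change was -0.12 with a 95% interval of -0.48 to 0.23 (edgeR adjusted p = 0.984).

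Some of these shifts went with length, and the part of length in them was not tested. The 46 members of at most 1000 bases had median log2 deviations of 0.11, -0.20, -0.013, 0.12 and -0.019 in antagomiR-29a replicates 1 to 5, and 0.0037, -0.069, -0.073, -0.026 and 0.17 in the scrambled controls. The 37 members over 8000 bases had -0.043, 0.10, 0.0060, -0.11 and 0.038 in antagomiR-29a replicates 1 to 5, and 0.031, 0.012, -0.038, 0.046 and -0.018 in the scrambled controls. By these medians, short members were low where long ones were high in antagomiR-29a replicate 2, and the reverse held in antagomiR-29a replicate 4. Not all short members moved alike, and the transcripts of rank 48, rank 57 and rank 73 had their lowest control values in control replicate 5. Genes of like length at ranks 201 to 1000 were set beside them. Over 8000 bases, 228 such genes had medians of 0.096 in antagomiR-29a replicate 2 and -0.10 in antagomiR-29a replicate 4, close to those of the long members. At most 1000 bases, 58 such genes had -0.073 in antagomiR-29a replicate 2, 0.066 in antagomiR-29a replicate 4 and 0.0033 in control replicate 5, where the short members had -0.20, 0.12 and 0.17. All 3182 tested genes of at most 1000 bases outside the members had -0.038, 0.029 and 0.0092 in these libraries.

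**Figure D5:**
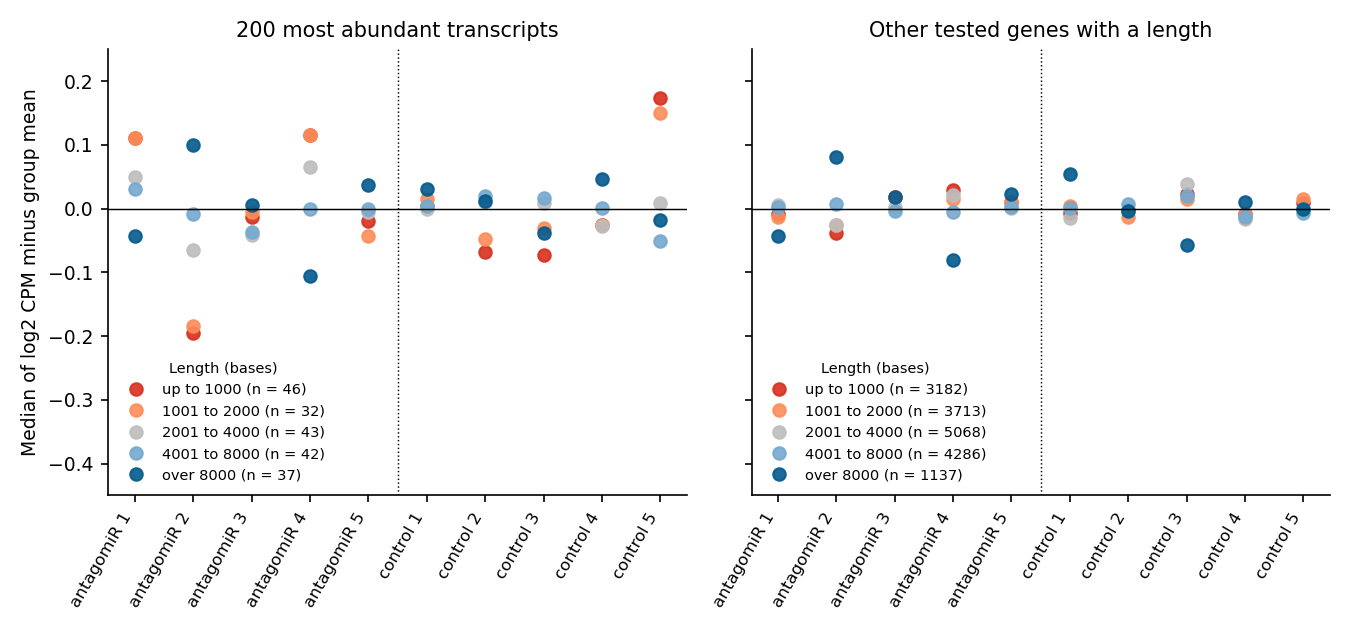
Median over genes of log2 CPM minus the gene's group mean (vertical axis) in each library (horizontal axis), by length class, for the 200 members on the left and the other tested genes on the right; antagomiR-29a libraries stand left of the dotted line and scrambled controls right of it. Members of at most 1000 bases run from -0.20 in antagomiR-29a replicate 2 to 0.17 in control replicate 5, and members over 8000 bases from -0.11 in antagomiR-29a replicate 4 to 0.10 in antagomiR-29a replicate 2.

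Set side by side by length, the 5 classes of members gave these shares in the groups. The 46 members of at most 1000 bases took 3.87% ± 0.351 of the counts in antagomiR-29a and 3.85% ± 0.131 in scrambled control libraries, with 36 members higher and 10 lower in antagomiR-29a. The 32 members over 1000 and up to 2000 bases took 3.499% ± 0.265 in antagomiR-29a and 3.44% ± 0.186 in scrambled control libraries, with 29 higher and 3 lower. The 43 members over 2000 and up to 4000 bases took 5.13% ± 0.196 in antagomiR-29a and 5.04% ± 0.145 in scrambled control libraries, with 25 higher and 18 lower. In these 3 classes the means differed by less than the SD of either group. The 42 members over 4000 and up to 8000 bases took 4.27% ± 0.117 in antagomiR-29a and 4.44% ± 0.177 in scrambled control libraries, a difference larger than the SD of the antagomiR-29a libraries, with 20 members higher and 22 lower. The 37 members over 8000 bases took 3.16% ± 0.2 in antagomiR-29a and 3.23% ± 0.0675 in scrambled control libraries, a difference slightly larger than the SD of the controls, with 11 higher and 26 lower (SD, n = 5 each). From the shortest class to the longest, the median log2 fold changes were 0.026, 0.047, 0.015, -0.0079 and -0.041. The control libraries chose the members, so these differences were not tested, and members of a class varied together, so their signs are not separate pieces of evidence.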

How the data were processed

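Per the labels' protocols, libraries from brain total RNA were made with the TruSeq RNA kit, and the submitters' processing notes name STAR 2.4.1d, featureCounts 1.4.6-p4 and bcl2fastq 1.8.4. Nothing used here gives the genome build, annotation or counting options. The deposited count table holds raw read counts per gene. The second deposited table gives RPKM, in which counts are divided by gene length and by library total. Its entries gave 1 length per gene only when successive genes were divided by successive library totals, so it served only to work out lengths, for the 18041 genes with RPKM of at least 1 in some library. CPM used library totals. Groups were compared with edgeR 4.0.16 in R 4.3.3 (quasi-likelihood, robust, TMM, filterByExpr with a minimum count of 10 and total of 15, group as the only term, Benjamini-Hochberg limit 0.05). The test was also run on simulated data in which each gene was drawn independently, so genes that vary together were not covered. SE is the size of the log2 fold change divided by the square root of F. Alternatives were DESeq2 1.42.0, limma 3.58.1 (voom), other scalings, filters and choices of members, each library left out, and the title number as a block. Blocks came from average linkage (scipy 1.17.1) on 1 minus the correlation, at a distance of 0.4. Figures used matplotlib 3.10.9. The members and all lists were chosen with earlier results of these data known. As 0 of the identifiers matched the 38438 genes of the RefSeq table (assembly NfurGRZ-RIMD1), lists of marker and pathway genes were not run. Identifiers are printed for the 2 members with the lowest p in each direction, and other members are given by rank, namely the 10 most abundant, those next to the limit and those with high spread; further ranks in the text were chosen after their values were seen. No 2 replicates looked like 1 library deposited again: over the members, chi-square divided by its degrees of freedom was 111 to 429 in the 20 pairs within groups.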

Additional observations from a re-analysis of the deposited data

Results flagged for a closer look

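For 2 of the 66 groups of values examined, 1 library stood apart from the other 4, with a gap to its neighbour of more than 0.71 of the whole range, where chance gives about 1 in 20 groups. Nfu_g_1_008211, the transcript of rank 4, had 3717 CPM in antagomiR-29a replicate 1, the highest of its group, with the other antagomiR-29a libraries between 3355 and 3451 CPM. This library was the antagomiR-29a library nearest to the controls. The transcript of rank 202, just outside the members, had 524 CPM in antagomiR-29a replicate 5, with the other antagomiR-29a libraries between 492 and 501 CPM. Over all members, 26 of 400 groups of 5 values (6.5%) had such a library.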

How the results depend on the processing

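The 0 members called by edgeR stayed at 0 with limma-voom, RLE or upper quartile scaling, library totals alone, both other count filters, an adjusted p limit of 0.1 and each library left out (4 to 11 members at an unadjusted p under 0.05 with 1 library left out, beside 4.66% to 7.40% of all tested genes, the 11 beside 7.40% without antagomiR-29a replicate 2). DESeq2 called 1 member. Chosen from the 5 antagomiR-29a libraries, the list held 1 called gene, and a list of 400 also held 1, in both cases the gene of control rank 387. The median log2 fold change lay between -0.0078 and 0.034 with 1 library left out. The share of counts moved with the list. For 100 and 400 genes chosen by control mean CPM it was 13.7% and 28.2% in antagomiR-29a, and 13.8% and 28.2% in scrambled control libraries. For 200 genes chosen by control CPM per kilobase it was 15.6% in antagomiR-29a and 15.6% in scrambled control libraries. The median SD of log2 CPM, 0.12 in antagomiR-29a and 0.11 in scrambled control libraries, ran from 0.097 (without antagomiR-29a replicate 2) to 0.14 in antagomiR-29a and from 0.079 (without scrambled control replicate 5) to 0.11 in scrambled control libraries with 1 library left out. Members whose groups did not overlap numbered 3 to 6 with 1 library left out, beside 1.70% to 2.69% of all tested genes. There were 6 (2 of them higher in antagomiR-29a) without antagomiR-29a replicate 2 or scrambled control replicate 3. Without antagomiR-29a replicate 1 or scrambled control replicate 5 there were 5. With members chosen from all 10 libraries there were 3, of which 1 was higher and 2 lower in antagomiR-29a, beside 1.18% of all tested genes. Chosen after seeing the data, other distances and each library left out gave a largest block of 68 to 74 members, at least 64 of them among the 70. With a replicate block given by the title number, 0 members and 0 of all tested genes were called, with 4 members at an unadjusted p under 0.05, beside 3.73% of all tested genes. Only 4 numbers occur in both groups. The deviations of their libraries correlated at -0.44, -0.22, -0.079 and -0.22 over the members, and at 0.011, -0.36, -0.092 and -0.071 over all tested genes with a length. Since genes vary together, these correlations cannot show whether the numbers mark a pairing. The main fit took none.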
